A study of Mus musculus with 8 samples.

Results

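The genes described here encode the enzymes that add and remove acetyl and methyl groups on histones. They were chosen by symbol, as the numbered members of the Kat, Kmt, Setd and Prmt families, called writers here, and of the Hdac, Sirt and Kdm families, called erasers. Of 26642 genes and loci in the count table, 68 matched, 32 writers and 36 erasers. The mRNA libraries came from CT26, a colon carcinoma cell line of the mouse kept in RPMI medium with serum. There were 4 libraries of cells labelled Tead1/4 knockout (KO) and 4 of unedited cells (WT). Tead1 and Tead4 encode transcription factors that act with YAP and TAZ at the end of the Hippo pathway. The labels name no clone, guide or edited exon, and they leave unsaid whether replicates were grown separately. Each p-value therefore reflects library-to-library spread, and that spread may be technical.

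Acetyl groups on histone lysines are placed by acetyltransferases from acetyl-CoA and are taken off by zinc-dependent deacetylases (Hdac) or by NAD-dependent sirtuins (Sirt). Methyl groups come from S-adenosylmethionine: SET-domain enzymes place them on lysines and Prmt enzymes on arginines, while lysine demethylases (Kdm) remove them with flavin or with iron and 2-oxoglutarate. Acetylation and methylation of H3K4 (lysine 4 of histone H3) mark active promoters and enhancers. Methylation of H3K9 and H3K27 goes with silent chromatin, and that of H4K20 (lysine 20 of histone H4) with chromosome compaction and replication. Some numbered members act mainly on other proteins: Setd3 methylates actin, Hdac6 deacetylates tubulin, Hdac10 acts on polyamines, and Sirt3, Sirt4 and Sirt5 are mitochondrial.

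Total counts per library lay between 30092988 and 32774905 in KO and between 29679405 and 31491634 in WT, and the members took 0.392% to 0.480% of them in KO and 0.468% to 0.541% in WT. Both targeted mRNAs were lower in KO and still detected: Tead1 lay between 51.2 and 77.8 CPM in KO against 142 to 319 CPM in WT (edgeR adjusted p = 0.00217), and Tead4 between 23.3 and 37.0 CPM in KO against 36.7 to 63.2 CPM in WT (adjusted p = 0.0261). Levels in CPM (counts scaled to a common library size with TMM factors) are compared between libraries, and levels of different genes only as CPM per kilobase of exon. Of 10 colon epithelial markers 4 could be tested, and 2 of them were higher in KO: Krt18 (76.3 CPM in KO, 38.5 CPM in WT, edgeR adjusted p = 0.00107) and Lgals4 (6.02 CPM in KO, 0.225 CPM in WT, adjusted p = 0.00084). Krt8 and Krt20 were not called, Epcam had no count in any library, Cdh1 had 10 counts in all, and the summed level was 110.1 to 145 CPM in KO and 56.8 to 107 CPM in WT. Of 8 mesenchymal markers 7 could be tested: Dcn, Pdgfra and Pdgfrb were higher in KO (adjusted p = 0.000803, 0.000837 and 0.026), Cdh2 was lower (0.00813), and Vim, Fn1 and Col1a1 were not called. Their summed level, mostly Vim, was 4813 to 4981 CPM in KO and 3654 to 5134 CPM in WT. The summed level of 8 leukocyte markers was 10.2 to 16.6 CPM in KO and 1.55 to 3.75 CPM in WT, carried by Cd68 and Lyz2, with 5 counts of Ptprc and 0 of Cd3e over all libraries. The part of these markers in the results on histone enzymes was not tested. KO replicate 1 had 14345 rows above 0, against 17759 to 17948 in KO replicates 2, 3 and 4. Its counts differed most from those of KO replicates 3 and 4 (chi-square per degree of freedom of 257 and 205). The value was 118 against KO replicate 2, and 66.4 to 145 among KO replicates 2, 3 and 4. WT replicates 1 and 4 resembled each other, as did WT replicates 2 and 3. In these bulk samples fewer cells with a transcript and less of it per cell cannot be told apart.

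The 4 promoter windows printed here belong to members among those with the largest called changes, and Sirt1 and Hdac11 were left out. Kdm5b and Kdm7a rose in KO and were lowest in KO replicate 1. Kmt5a and Prmt5 fell and were highest in that library among the KO libraries. Hdac11 also rose (log2 fold change 2.01) and was lowest in KO replicate 1, at 6.54 CPM against 7.70 to 8.99 CPM in the others. Each window runs from 250 bases before to 50 after a RefSeq start on GRCm38.p6 and is written 5′ to 3′ along the gene. Capitals mark CCAAT or its complement ATTGG, the letters that factor NF-Y recognises.
Kdm5b, chr1:134559928-134560227, plus strand: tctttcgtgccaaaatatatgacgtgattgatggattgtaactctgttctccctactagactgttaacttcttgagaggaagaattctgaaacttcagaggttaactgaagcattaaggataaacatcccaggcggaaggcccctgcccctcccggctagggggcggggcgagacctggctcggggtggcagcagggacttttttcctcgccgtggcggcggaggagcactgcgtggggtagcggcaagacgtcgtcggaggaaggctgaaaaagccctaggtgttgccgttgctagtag
Kdm7a, chr6:39206724-39207023, minus strand: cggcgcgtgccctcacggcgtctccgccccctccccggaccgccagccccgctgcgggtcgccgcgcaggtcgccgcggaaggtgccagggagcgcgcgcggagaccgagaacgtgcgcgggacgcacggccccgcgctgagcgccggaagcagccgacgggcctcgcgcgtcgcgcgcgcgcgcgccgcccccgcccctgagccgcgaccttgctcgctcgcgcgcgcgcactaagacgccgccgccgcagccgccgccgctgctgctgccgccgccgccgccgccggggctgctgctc
Kmt5a, chr5:124439680-124439979, plus strand: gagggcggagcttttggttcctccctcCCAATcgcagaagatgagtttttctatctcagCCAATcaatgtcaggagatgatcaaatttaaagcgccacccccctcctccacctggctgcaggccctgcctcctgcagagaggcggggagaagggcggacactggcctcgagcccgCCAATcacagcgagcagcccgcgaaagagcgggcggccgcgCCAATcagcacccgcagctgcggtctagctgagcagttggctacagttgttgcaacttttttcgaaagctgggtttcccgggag
Prmt5, chr14:54517421-54517720, minus strand: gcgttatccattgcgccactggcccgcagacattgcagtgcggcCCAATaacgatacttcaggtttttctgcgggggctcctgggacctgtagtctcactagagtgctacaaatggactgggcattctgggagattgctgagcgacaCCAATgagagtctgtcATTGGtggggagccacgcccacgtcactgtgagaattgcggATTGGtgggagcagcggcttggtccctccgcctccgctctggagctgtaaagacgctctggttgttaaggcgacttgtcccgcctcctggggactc
Kmt5a has 3 windows in the table, of which the one nearest to the GENCODE start is printed. It held CCAAT 4 times, beginning 223, 191, 75 and 34 bases before the start, and the other windows of the gene held it 1 and 2 times. The Prmt5 window held it 4 times as well, at 206 and 103 bases before the start and, as ATTGG, at 87 and 46. At least 4 copies were found in 1.06% of the 32851 windows in the table. Among the 56 members with a window, only these 2 genes had such a window, 1 each. The share is per window and the member count per gene, so they are not a like comparison. The windows of Kdm5b and Kdm7a held none of the letters searched for on both strands, which were CCAAT, the TEAD core GGAATG, and TTTCCCGC or TTTGGCGC for E2F; none of these overlaps another. Kdm7a lay in the most GC-rich of the 4 windows (82.7%, against 59.7% for Kmt5a, 58.0% for Prmt5 and 54.7% for Kdm5b). Over the 56 members with a window, GGAATG was in at least 1 window of 19.6%, CCAAT in 48.2% and the E2F letters in 3.6%, against 16.6%, 41.1% and 1.8% of the 27025 genes in the table. GGAATG stood in 3 of 7 members called higher (Hdac8, Hdac11 and Kat8), in 1 of 14 called lower (Setd1a) and in 6 of 32 not called. CCAAT stood in 4 of 7 called higher (Hdac8, Hdac11, Kat8 and Sirt3), in 6 of 14 called lower and in 16 of 32 not called. Hdac11, which rose and is not printed, thus had both CCAAT and GGAATG. The contrast between the 4 printed windows therefore does not hold over the called members. All these finds are matches of letters and not binding sites.

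Across the members, 65 were expressed well enough to be tested and 25 of these (38.5%) were called at an edgeR adjusted p under 0.05, against 41.6% of all 13265 genes and loci tested. The members were thus called about as often as other genes. In KO, 8 members rose (12.3%, against 20.9% of all rows) and 17 fell (26.2%, against 20.6%). The groups did not overlap for 25 members (6 with KO above, 19 with KO below), against 40.7% of all rows (21.1% above, 19.6% below). Writers and erasers were called in different proportions by direction. Among 31 writers tested, 2 rose and 9 fell in KO (35.5% called), with a median log2 fold change of -0.32. Among 34 erasers tested, 6 rose and 8 fell (41.2% called), with a median of 0.04. Of the 23 tested writers with an established histone substrate, 2 rose and 9 fell, with a median of -0.40. Of 28 such erasers, 5 rose and 8 fell, with a median of -0.04. The median over all rows tested was 0.02, and it was 0.20 with upper-quartile factors, which also moved the share of all calls that were higher to 64.6%, against 50.4% with TMM factors. The medians were then -0.14 for writers and 0.22 for erasers. The balance of erasers turned with the setting: 9 rose and 5 fell under that scaling, 8 and 4 when scaling by library size alone, 7 and 5 without a filter on low counts, and 8 and 5 with a filter of at least 5 CPM in 4 libraries. Called changes of at least 2-fold were found in 8 members, against 22.4% of all rows. The 4 increases of that size were in erasers (Kdm7a, Hdac11, Kdm5b and Sirt3). Of the 4 decreases, 3 were in writers (Prmt5, Kmt5a and Setd1b) and the other, Sirt1, was the largest change of all members. Only the counts and medians describe this contrast; no test over the members was made.

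The count of writers called higher rested on single libraries: it was 5 without KO replicate 1 and 1 without KO replicate 2, 3 or 4 or WT replicate 1 or 4. The count of erasers called lower was 5 without KO replicate 3 or 4 or WT replicate 1. With WT replicates 1 and 4 summed and 2 and 3 summed, which leaves 2 WT units, 15 members were called in all. No called member changed sign in any of the 18 refits.

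**Figure D1:**
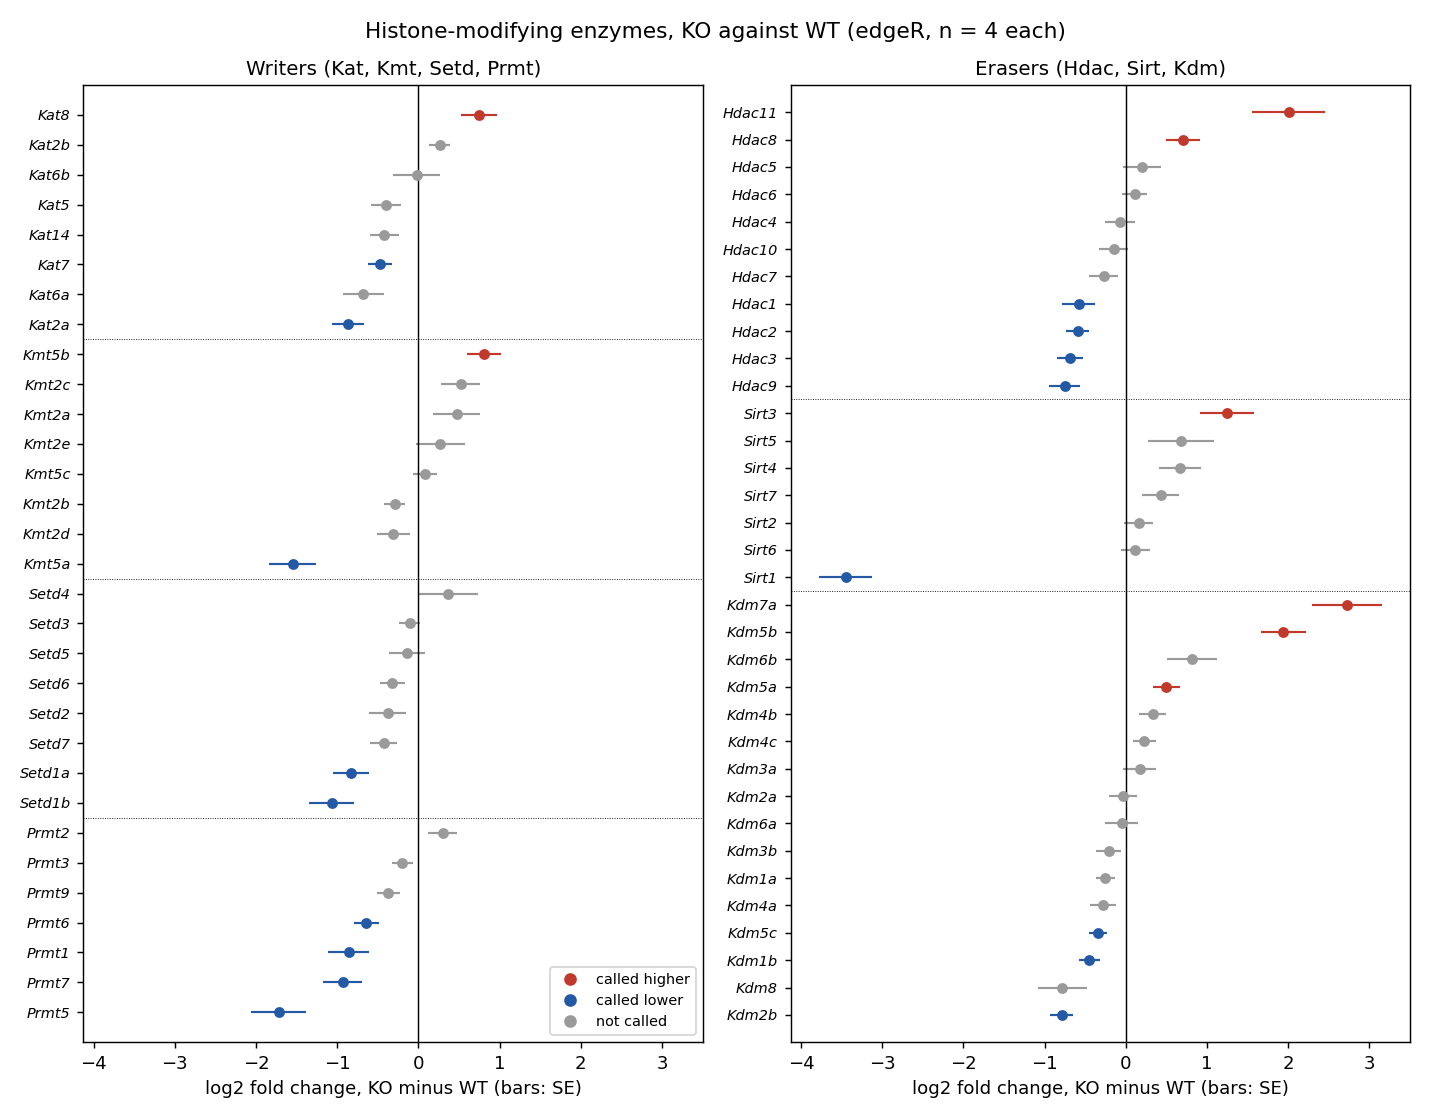
Log2 fold change of each of the 65 tested members (horizontal axis, KO minus WT, bars are SE), writers on the left and erasers on the right, grouped by family, with called members in red (higher) and blue (lower). Sirt1 lies farthest to the left at -3.45 and Kdm7a farthest to the right at 2.73, and 9 writers are called lower and 2 higher.

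Among the acetyltransferases 1 of 8 rose, 2 fell and 5 did not pass the test. Kat2a (GCN5), the acetyltransferase of the SAGA coactivator complex, stood at 146, 97.5, 85.1 and 85.2 CPM in KO replicates 1 to 4, against 226, 162, 170 and 196 CPM in WT replicates 1 to 4. Every KO value lay below every WT value (log2 fold change -0.87, SE 0.20, edgeR adjusted p = 0.00892). Kat2a was also the most abundant of the family per length, at 29.7 CPM per kb in KO and 54.1 CPM per kb in WT. Kat7 (HBO1), which acetylates histones at replication origins and gene bodies, fell to 105 ± 14.2 CPM in KO, against 145 ± 16.6 CPM in WT (SD, n = 4 each; edgeR adjusted p = 0.0290), and KO replicate 1 overlapped the WT range. Kat8 (MOF), the enzyme for lysine 16 of histone H4, was at 9.86, 11.7, 13.2 and 12.9 CPM in KO replicates 1 to 4, against 5.30, 8.67, 8.46 and 5.96 CPM in WT. All KO values were above all WT values (log2 fold change 0.75, SE 0.22, edgeR adjusted p = 0.0220). Kat6a had a log2 fold change of -0.68 with an adjusted p = 0.0546. WT replicates 1 and 4, were at 216 and 189 CPM, while WT replicates 2 and 3, at 119.7 and 103 CPM, lay near the KO values of 71.1 to 113 CPM. Kat2b, Kat5, Kat6b and Kat14 had log2 fold changes between -0.42 and 0.26. The call for Kat7 was lost without KO replicate 2, 3 or 4 (edgeR adjusted p = 0.0770, 0.0897 and 0.0881), without WT replicate 1 or 4 (0.0763 and 0.0580), with upper-quartile factors (0.0864), with library size only (0.0739), without a filter on low counts (0.0573) and with WT pairs summed (0.101). That for Kat8 was lost without KO replicate 2, 3 or 4 (0.0502, 0.0683 and 0.0595), without WT replicate 1 or 4 (0.0540 and 0.0641) and with WT pairs summed (0.0774).

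The zinc-dependent deacetylases of class I all changed, 3 downward and 1 upward. Hdac3, the catalytic subunit of the NCoR and SMRT corepressor complexes, was at 128, 101, 94.6 and 90.4 CPM in KO replicates 1 to 4, against 178, 157, 144 and 189 CPM in WT. No KO value reached the WT range (log2 fold change -0.69, SE 0.16, edgeR adjusted p = 0.00775). Hdac1 and Hdac2, the paired deacetylases of the Sin3, NuRD and CoREST complexes, fell to 56.9 ± 16.2 and 91.3 ± 11.5 CPM in KO, against 85.1 ± 8.37 and 137 ± 16.1 CPM in WT (SD, n = 4 each; edgeR adjusted p = 0.0397 and 0.0105). KO replicate 1 overlapped WT for Hdac1 and did not for Hdac2. Hdac8, which also deacetylates the cohesin subunit SMC3, was at 12.1, 11.8, 12.5 and 12.5 CPM in KO, against 7.51, 10.0, 7.04 and 5.50 CPM in WT. Its KO values were close together and all above WT (log2 fold change 0.70, SE 0.21, edgeR adjusted p = 0.0219). Per length, Hdac3, Hdac2, Hdac1 and Hdac7 led the family in WT with 41.2, 30.6, 24.7 and 23.5 CPM per kb, and Hdac8 had 2.53 CPM per kb in KO and 1.55 CPM per kb in WT.

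Outside class I, Hdac9 fell and Hdac11 rose. Hdac9, a class IIa enzyme that works mainly as a scaffold for corepressors, was at 10.8, 9.74, 12.2 and 10.6 CPM in KO replicates 1 to 4, against 22.3, 17.6, 19.8 and 13.2 CPM in WT. The groups did not overlap (log2 fold change -0.75, SE 0.19, edgeR adjusted p = 0.0123). With library size only as the scaling the adjusted p was 0.0515. Hdac11 (chr6:91156665-91174692, plus strand), the class IV member, which removes long fatty acyl groups from lysines, was at 6.54, 8.83, 8.99 and 7.70 CPM in KO, against 1.47, 2.94, 2.96 and 0.568 CPM in WT. All KO values lay above all WT values, and WT replicate 4 was the lowest (log2 fold change 2.01, SE 0.45, edgeR adjusted p = 0.00710). A neighbouring annotation covers 15.4% of its exon bases. Hdac4, Hdac5, Hdac6, Hdac7 and Hdac10 were not called, with log2 fold changes between -0.27 and 0.20. The call for Hdac1 was lost without KO replicate 2, 3 or 4 (edgeR adjusted p = 0.0841, 0.106 and 0.111), without WT replicate 1, 2 or 4 (0.0604, 0.0916 and 0.0701) and under 6 further settings (0.0502 to 0.129). That for Hdac8 was lost without KO replicate 3 or 4 (0.0596 and 0.0530), without WT replicate 4 (0.0551) and with WT pairs summed (0.0566), and that for Hdac2 with WT pairs summed (0.0541).

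Sirt1 (ENSMUSG00000020063, chr10:63319005-63381704, minus strand, GRCm38) showed the largest change of the 65 tested members. Sirt1, a nuclear NAD-dependent deacetylase of histones, p53 and other factors, was at 0.284, 0.457, 0.465 and 0.397 CPM in KO replicates 1 to 4, against 4.82, 3.79, 3.47 and 5.61 CPM in WT replicates 1 to 4. The KO libraries held 9, 15, 16 and 13 counts and the WT libraries 131, 111, 103 and 158. The groups were far apart and KO replicate 1 did not lie nearer to WT than the others. Sirt1 was 10.9-fold lower in KO (log2 fold change -3.45, SE 0.33, edgeR adjusted p = 0.0003), the 27th most negative fold change of the 13265 rows. Its level was low in both genotypes, and Sirt2, the most abundant sirtuin, stood at 16.9 CPM per kb in KO and 15.1 CPM per kb in WT. Sirt1 thus made up 0.216% of the summed sirtuin level in KO and 2.87% in WT. Its call held in the 17 refits in which it could be tested; it is too low for a filter of at least 5 CPM in 4 libraries.

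Sirt3, the main deacetylase of the mitochondrial matrix, rose in KO. It was at 11.1, 12, 11.5 and 13.5 CPM in KO replicates 1 to 4, against 2.39, 8.29, 5.49 and 3.94 CPM in WT. The KO values were close together and above every WT value, while the WT values were spread more widely (log2 fold change 1.25, SE 0.33, edgeR adjusted p = 0.0150). The other mitochondrial sirtuins, Sirt4 and Sirt5, had log2 fold changes of 0.67 and 0.68 and were not called (adjusted p = 0.0606 and 0.207). Sirt2, Sirt6 and Sirt7 had log2 fold changes of 0.16, 0.12 and 0.43 and were not called either. Of the 7 sirtuins, Sirt1 was the only one with a negative fold change.

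**Figure D2:**
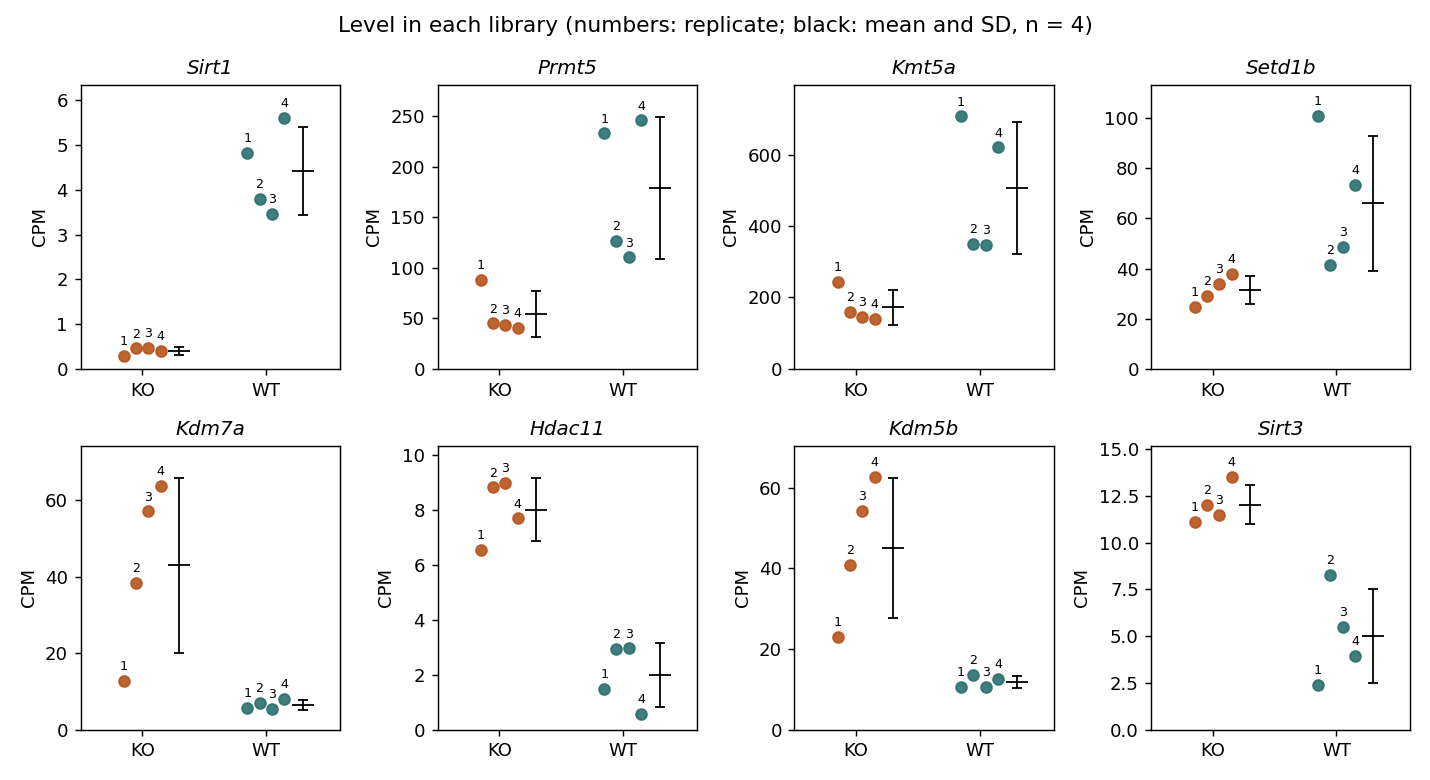
Level of the 8 members with the largest called changes in each library (vertical axes in CPM, starting at 0; numbers are replicates; black bars are mean and SD, n = 4), KO on the left and WT on the right of each panel. Sirt1 has KO values under 0.5 CPM beside WT values of 3.47 to 5.61 CPM, and Prmt5 and Kmt5a show WT replicates 1 and 4 above WT replicates 2 and 3.

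Enzymes that methylate H4K20 moved in opposite directions. Kmt5a (SET8, chr5:124439930-124462308, plus strand), which places the first methyl group on H4K20 and is needed for passage through S phase and mitosis, was at 244, 159, 145 and 141 CPM in KO replicates 1 to 4, against 707, 350, 348 and 620 CPM in WT. All KO values lay below all WT values, KO replicate 1 was the highest in KO, and WT replicates 1 and 4 were well above WT replicates 2 and 3 (log2 fold change -1.55, SE 0.29, edgeR adjusted p = 0.00344). Kmt5b (SUV420H1), which adds the further methyl groups, was at 35.4, 58.7, 66.6 and 69.3 CPM in KO, against 31.9, 33.3, 35.5 and 30.4 CPM in WT. It rose in KO with replicate 1 inside the WT range and the other 3 above it (log2 fold change 0.81, SE 0.21, edgeR adjusted p = 0.0120; 0.0798 with WT pairs summed). Kmt5c (SUV420H2), the second enzyme for these steps, had a log2 fold change of 0.08 and was not called. The ratio of Kmt5a to Kmt5b, both per kb, was 9.61 ± 6.42 in KO and 43.7 ± 18.0 in WT (SD, n = 4 each). Per length, Kmt5a was at 32.5 ± 9.08 CPM per kb in KO and 95.4 ± 34.9 CPM per kb in WT, and Prmt1, the writer nearest to it in WT, at 51.9 ± 20.7 CPM per kb in KO and 93.9 ± 12.4 CPM per kb in WT (SD, n = 4 each), so that their order in WT was within the spread.

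Of the 7 H3K4 methyltransferases tested, 2 fell, none rose and 5 did not pass. Setd1b, the catalytic subunit of a COMPASS complex, was at 24.8, 29.2, 34.0 and 37.8 CPM in KO replicates 1 to 4, against 101, 41.5, 48.7 and 73.2 CPM in WT. Its paralogue Setd1a, the main source of trimethylated H3K4 at promoters, was at 98.1, 95.7, 75.3 and 76.9 CPM in KO, against 226, 112, 127 and 152 CPM in WT. In neither gene did the groups overlap, and WT replicate 1 was highest in both (for Setd1b a log2 fold change of -1.07 with SE 0.28 and edgeR adjusted p = 0.0131, for Setd1a one of -0.83 with SE 0.22 and adjusted p = 0.0152). Of the Setd1a exon bases, 51.8% lie under an annotated neighbour, so part of its counts may belong there. Among the MLL enzymes, Kmt2a and Kmt2c had log2 fold changes of 0.47 and 0.52 and Kmt2b and Kmt2d of -0.29 and -0.31, none called. Kmt2a stood at 99.1, 179, 233 and 255 CPM in KO, against 193, 115, 121 and 123 CPM in WT. KO replicate 1 and WT replicate 1 each departed from their own group in that gene. Setd7, a monomethyltransferase of H3K4 and of many other proteins, was at 80.4 to 92.7 CPM in KO and 96.7 to 153 CPM in WT, without overlap, and had an adjusted p of 0.0625. Setd2, which trimethylates lysine 36 of histone H3 behind RNA polymerase, had a log2 fold change of -0.38 and was not called (adjusted p = 0.203). None of Setd3, Setd4, Setd5, Setd6 and Kmt2e, SET-domain proteins with other or unsettled substrates, was called.

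In the arginine methyltransferase family 4 of 7 tested members fell and none rose. Prmt5 (chr14:54507187-54517525, minus strand), which symmetric dimethylarginine on histones and splicing proteins, was at 87.8, 45, 43.8 and 40.8 CPM in KO replicates 1 to 4, against 233, 127, 110 and 246 CPM in WT. As for Kmt5a, KO replicate 1 was the highest KO library and WT replicates 1 and 4 the higher WT libraries (log2 fold change -1.72, SE 0.34, edgeR adjusted p = 0.00427). Prmt1, the main enzyme for asymmetric dimethylarginine, was at 282, 165, 133 and 131 CPM in KO, against 277, 325, 378 and 306 CPM in WT. KO replicate 1 was inside the WT range and the other 3 KO libraries below it (log2 fold change -0.86, SE 0.25, edgeR adjusted p = 0.0221). Prmt7, which adds a lone methyl group to arginine, was at 44.6, 23.9, 27.6 and 28.1 CPM in KO, against 41.3, 64.1, 75 and 56.2 CPM in WT. Here too KO replicate 1 overlapped WT, at WT replicate 1 (log2 fold change -0.93, SE 0.24, edgeR adjusted p = 0.0131). Prmt6, which methylates arginine 2 of histone H3, was at 24.6, 26.5, 23.0 and 24.0 CPM in KO, against 36.5, 38.3, 46.3 and 32.0 CPM in WT. KO replicate 1 lay with the other KO libraries, below every WT value (log2 fold change -0.64, SE 0.15, edgeR adjusted p = 0.00806). Of the Prmt6 exon bases, 23.4% lie under an annotated neighbour. Prmt2, Prmt3 and Prmt9 had log2 fold changes of 0.30, -0.20 and -0.37 and were not called. The call for Prmt1 was lost without KO replicate 2, 3 or 4 (edgeR adjusted p = 0.0644, 0.0606 and 0.0643) and with WT pairs summed (0.0899). Prmt1 made up 46.9% of the summed Prmt level per kb in KO and 49.5% in WT, and Prmt5 12.4% in KO and 23.9% in WT.

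Demethylases of H3K4 were called in both directions, and Kdm7a rose most of all members. Kdm7a (chr6:39136623-39206789, minus strand), which methyl groups from H3K9 and H3K27, was at 12.8, 38.3, 57.1 and 63.7 CPM in KO replicates 1 to 4, against 5.59, 6.96, 5.36 and 7.99 CPM in WT. All KO values exceeded all WT values, with KO replicate 1 far below the other KO libraries (log2 fold change 2.73, SE 0.43, edgeR adjusted p = 0.00179). Kdm5b (JARID1B, chr1:134560171-134635285, plus strand), a demethylase of trimethylated H3K4 that is linked to slow-cycling tumour cells, was at 22.9, 40.8, 54.3 and 62.6 CPM in KO, against 10.6, 13.5, 10.5 and 12.6 CPM in WT. Again KO replicate 1 was lowest in KO and still above WT (log2 fold change 1.94, SE 0.28, edgeR adjusted p = 0.00133). Kdm5a (JARID1A), its paralogue, was at 67.8, 89.7, 99.9 and 111 CPM in KO, against 67.4, 62.4, 69.6 and 60.6 CPM in WT. KO replicate 1 was within the WT range and the other 3 above it (log2 fold change 0.50, SE 0.17, edgeR adjusted p = 0.0339). Kdm5c fell slightly, to 90.3 ± 3.44 CPM in KO, against 114 ± 3.83 CPM in WT, and Kdm1b (LSD2), a flavin-dependent enzyme, to 28.6 ± 1.91 CPM in KO, against 39.0 ± 4.23 CPM in WT (SD, n = 4 each; edgeR adjusted p = 0.0362 and 0.0239). The better-known flavin enzyme Kdm1a (LSD1) had a log2 fold change of -0.25 and was not called, and was at 15.5 CPM per kb in KO and 18.5 CPM per kb in WT.

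The smaller of these calls depended on the libraries used. That for Kdm5a was lost without any of the 8 libraries but KO replicate 1 (edgeR adjusted p = 0.0522 to 0.101), with the replicate number as a block (0.0802) and with WT pairs summed (0.156). That for Kdm5c was lost without KO replicate 2, 3 or 4 (0.111, 0.107 and 0.0942), without WT replicate 1, 2 or 3 (0.0703, 0.0777 and 0.0537) and under 6 further settings (0.0769 to 0.316). That for Kdm1b was lost without KO replicate 3 or 4 (0.0780 and 0.0763), without WT replicate 1 (0.0586) and under 5 further settings (0.0593 to 0.125).

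Among the other demethylases Kdm2b fell and the rest were not called. Kdm2b, a demethylase of lysine 36 of histone H3 that also brings a Polycomb complex to CpG islands, was at 39.2, 37.2, 34.2 and 33.5 CPM in KO replicates 1 to 4, against 68.3, 51.4, 64.5 and 65.2 CPM in WT. The groups did not overlap (log2 fold change -0.79, SE 0.14, edgeR adjusted p = 0.00269). Kdm6b (JMJD3), an inducible demethylase of H3K27, was at 22.8, 39.5, 56.9 and 68.6 CPM in KO, against 31.9, 25, 18.9 and 30.8 CPM in WT, with KO replicate 1 inside the WT range and an adjusted p of 0.0605. Kdm6a (UTX), the other enzyme for H3K27, had a log2 fold change of -0.05. Kdm2a, Kdm3a, Kdm3b, Kdm4a, Kdm4b and Kdm4c had log2 fold changes between -0.28 and 0.33. Kdm8, an oxygenase whose histone activity is unsettled, was at 2.20 to 5.12 CPM in KO and 5.36 to 7.95 CPM in WT, without overlap, and had an adjusted p of 0.0623. In all, 40 tested members were not called, with log2 fold changes between -0.78 and 0.82, and 6 of them had no overlap between the groups (Kdm1a, Kdm8, Kmt2b, Prmt9, Setd6 and Setd7, all lower in KO).

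The remaining members, Kdm4d, Kdm5d and Prmt8, were too low to be tested. Kdm4d had 9 counts over the KO libraries and 2 over the WT libraries, and Prmt8 had 12 counts over the KO libraries and none in WT. Kdm5d, on the Y chromosome, had no count in any library, which allows up to 0.0948 CPM in KO and up to 0.11 CPM in WT (3 counts in the library of each genotype where they stand for most, counting error only).

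**Figure D3:**
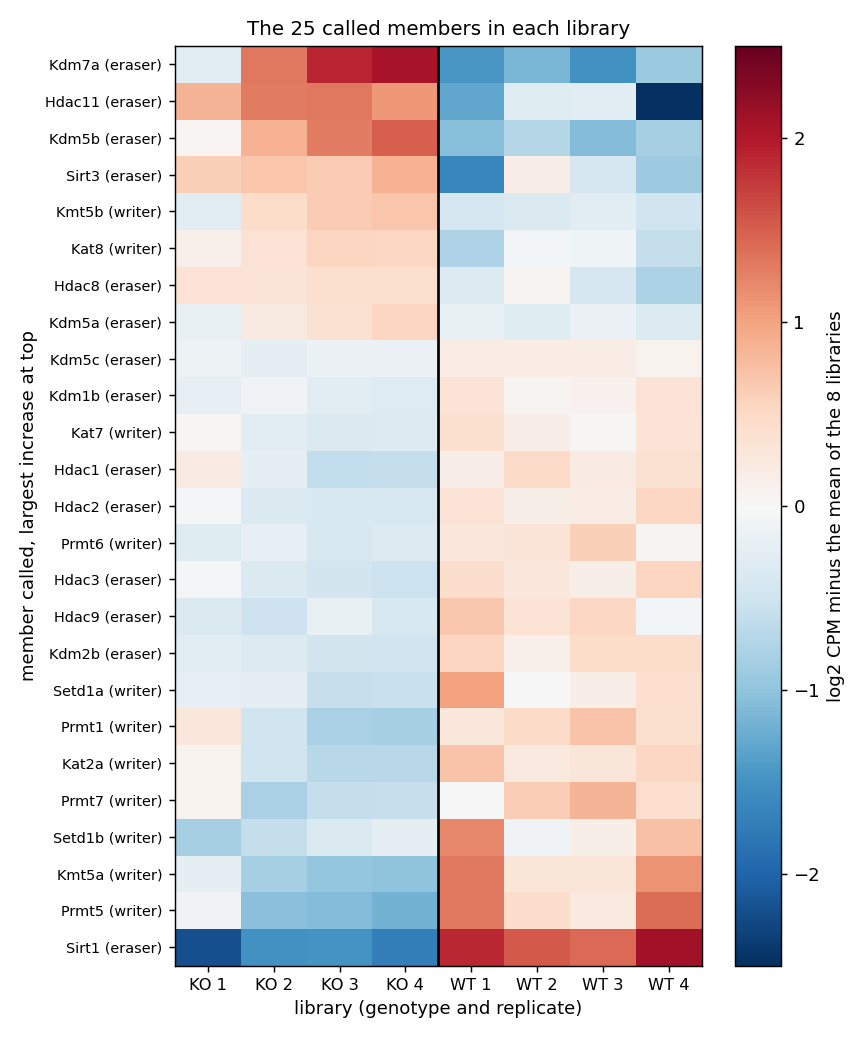
Level of the 25 called members (rows, largest increase at the top) in each library (columns, KO left of the black line and WT right of it), as log2 CPM minus the mean of the 8 libraries; red is higher and blue lower. KO replicate 1 is paler than the other KO libraries in most rows, and WT replicates 1 and 4 are darker than WT replicates 2 and 3 in the rows of Kmt5a and Prmt5.

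The called members did not differ alike between libraries of a genotype. KO replicate 1 was the KO library nearest to WT for 7 of the 8 members called higher, all but Hdac8, and for 12 of the 17 called lower. WT replicates 1 and 4 both lay above WT replicates 2 and 3 for 11 of the 17 called lower and both below them for 4 of these 17. For the members called higher, WT replicates 1 and 4 both lay below them in 4 of 8 and both above in 0. The same counts were not made over all called rows, so no pattern particular to the members is shown. Over all rows, 6829 were called without KO replicate 1 and 5513 with every library. Without KO replicate 2, 3 or 4 there were 3809 to 4062. Levels of cell division genes were likewise nearest to WT in KO replicate 1 and higher in WT replicates 1 and 4. The summed level of 30 G1/S and replication genes was 3958, 2251, 1335 and 1202 CPM in KO replicates 1 to 4, against 6199, 5469, 5692 and 6225 CPM in WT, and 24 of the 30 fell (none rose). That of 26 G2/M genes was 4425, 1865, 1113 and 899.5 CPM in KO, against 8620, 6199, 5882 and 7324 CPM in WT. Of the 26, 19 fell and none rose. Called lower were thus 80% of the G1/S and 73.1% of the G2/M genes, against 20.6% of all rows. KO replicate 1 was nearest to WT in other lists too, as in that of acetyl-CoA and NAD supply. Its sum there was 881 CPM, against 682 to 718 CPM in the other KO libraries and 937 to 976 CPM in WT. Among the acetyltransferase complex partners it was farthest, at 2251 CPM, against 2362 to 2488 CPM in the others. The part of cell division genes in the changes of Kmt5a, Prmt5 or other members was not tested.

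The summed level of the writers was lower in KO, and that of the erasers differed less. Per kb of exon, the 32 writers summed to 424, 356, 343 and 345 CPM in KO replicates 1 to 4, against 660, 501, 518 and 616 CPM in WT. The 36 erasers summed to 268, 269, 265 and 262 CPM per kb in KO, against 297, 296, 299 and 299 CPM per kb in WT. With TMM factors the groups did not overlap in either sum, and the eraser sum hardly varied within a genotype. Both sums depend on these factors, which were 0.966 to 1.144 in KO and 0.895 to 0.988 in WT. With library size only, the median log2 fold change of tested erasers was 0.23, against 0.04 with TMM factors. The lower eraser sum in KO is therefore not settled. The ratio of writers to erasers, which does not depend on the scaling of libraries, was 1.38 ± 0.135 in KO and 1.93 ± 0.258 in WT (SD, n = 4 each). Kmt5a and Prmt1 had the 2 highest mean levels of the writers, and without them the ratio was 1.06 ± 0.0302 in KO and 1.29 ± 0.176 in WT. By family, the Prmt sum was 108 ± 28.4 CPM per kb in KO and 190 ± 10.2 in WT, the Kmt and Setd sum 155 ± 4.28 in KO and 236 ± 59.8 in WT, and the Kat sum 104 ± 12.6 in KO and 148 ± 18.2 in WT. The Hdac sum was 116 ± 13.5 CPM per kb in KO and 152 ± 2.24 in WT, the Sirt sum 34.9 ± 2 in KO and 28.9 ± 0.919 in WT, and the Kdm sum 115 ± 12.1 in KO and 117 ± 2.27 in WT. For acetylation alone, the ratio of Kat to Hdac was 0.895 ± 0.00925 in KO and 0.976 ± 0.132 in WT, with the KO values inside the WT range. For H3K4, the ratio of the 7 methyltransferases to the 6 demethylases was 1.28 ± 0.123 in KO and 1.5 ± 0.366 in WT, also overlapping. These sums follow the few most abundant genes and hold no test.

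**Figure D4:**
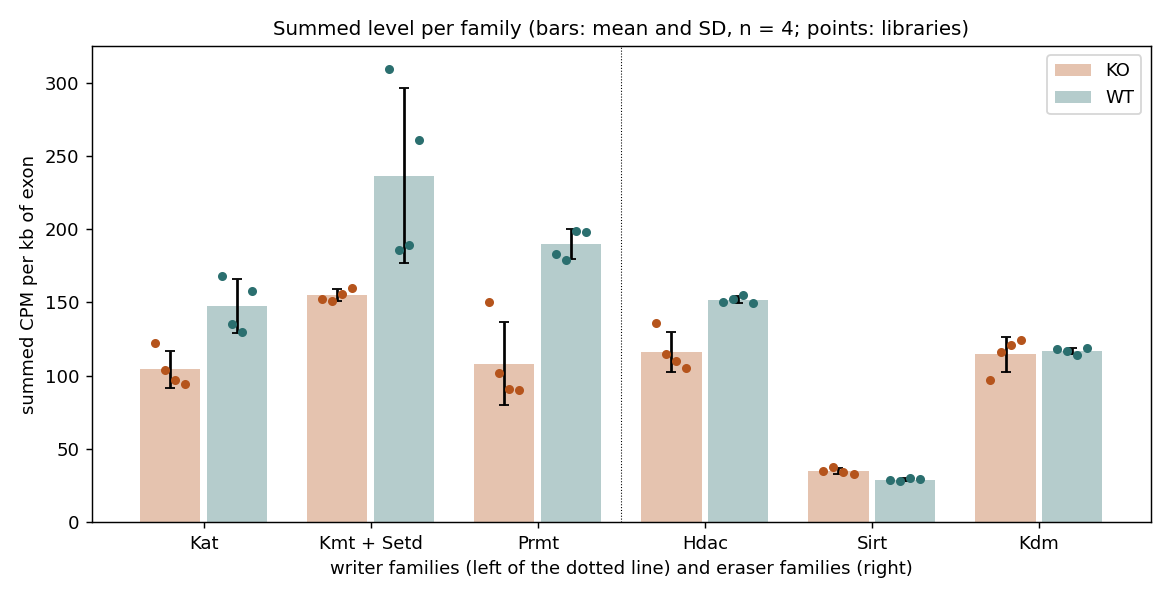
Summed level per family in CPM per kb of exon (vertical axis from 0), KO bars left of WT bars, with mean and SD (n = 4) and a point per library; writer families stand left of the dotted line. The Prmt sum is 108 in KO and 190 in WT, whereas the Kdm sums, 115 in KO and 117 in WT, lie together.

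Histone methyltransferases with other symbols, listed with related methyltransferases, were called about as often as all rows. Of 23 tested, 10 were called (43.5%, against 41.6% of all rows), 2 higher and 8 lower, with a median log2 fold change of -0.34. Among the increases was Ndufaf7, a mitochondrial enzyme that methylates a respiratory complex subunit and no histone. Ezh1, a catalytic subunit of Polycomb repressive complex 2, rose to 50.5 ± 12.1 CPM in KO, against 23.0 ± 3.52 CPM in WT (SD, n = 4 each; edgeR adjusted p = 0.00303). Its paralogue Ezh2 fell to 41.4 ± 24.2 CPM in KO, against 140.2 ± 41 CPM in WT (edgeR adjusted p = 0.00625). Dot1l, which methylates lysine 79 of histone H3, fell to 51.4 ± 7.53 CPM in KO, against 143 ± 27.5 CPM in WT (edgeR adjusted p = 0.000673). The H3K9 methyltransferases Suv39h2 and Setdb2 fell by 1.63 and 1.13 on the log2 scale, and Nsd2, an enzyme for lysine 36 of histone H3, by 0.79 (edgeR adjusted p = 0.00415, 0.00419 and 0.00376). Of 12 other acetyltransferases, 1 rose and 2 fell, with a median of -0.21. Hat1, which acetylates newly made histone H4, fell to 74.4 ± 42.5 CPM in KO, against 177 ± 32.3 CPM in WT, Clock fell by 0.94 on the log2 scale, and Ncoa3 rose by 0.66 (edgeR adjusted p = 0.0182, 0.0186 and 0.00862). Of 11 other demethylases and related oxygenases, 3 fell (Riox2, Phf8 and Phf2) and none rose (27.3% called). Their median was -0.41, lower than the 0.04 of the tested erasers chosen by symbol.

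Partner subunits of these enzymes were called lower more often than higher in each list, whereas over all rows 20.9% were called higher and 20.6% lower. Of 20 tested subunits of Polycomb and COMPASS complexes, 1 rose (5%) and 12 fell (60%), with a median log2 fold change of -0.65. Ash2l and Cxxc1, core and DNA-binding subunits of the Setd1 complexes, fell by 1.09 and 0.96 on the log2 scale (edgeR adjusted p = 0.00159 and 0.00355). Hcfc1, a cofactor of the same complexes, fell to 191 ± 32.8 CPM in KO, against 581 ± 218 CPM in WT, and Suz12, a core Polycomb subunit, to 124 ± 19.7 CPM in KO, against 217 ± 12 CPM in WT (SD, n = 4 each; edgeR adjusted p = 0.00217 and 0.00316). Phf1, an accessory Polycomb subunit, was the member that rose (log2 fold change 1.76, edgeR adjusted p = 0.00133). Among 23 deacetylase complex partners 1 rose and 7 fell (34.8% called, median -0.50), with Sap30, a Sin3 subunit, at 8.15 ± 2.91 CPM in KO and 27.1 ± 2.76 CPM in WT (edgeR adjusted p = 0.00113). Among 34 acetyltransferase complex partners 3 rose and 13 fell (47.1% called, against 41.6% of all rows; median -0.39). Zzz3 fell by 0.82 and Msl3 by 0.68 on the log2 scale, whereas Ing4 rose by 1.54 and Tada3 by 0.56 (edgeR adjusted p = 0.00378, 0.00490, 0.0120 and 0.00604). Of 19 bromodomain proteins, which bind acetylated lysine, 1 rose and 9 fell (median -0.42), among them Atad2, Pbrm1 and Baz1a.

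Of the genes that make or use the cofactors, those of S-adenosylmethionine metabolism were called at 75% (6 of 8), against 41.6% of all rows. Those for acetyl-CoA and NAD supply (33.3%) and for 2-oxoglutarate metabolism and the citric acid cycle (28.6%) were called less often than all rows. Of 8 tested genes of S-adenosylmethionine metabolism, 2 rose and 4 fell. Mat2a, which makes S-adenosylmethionine, fell to 333 ± 19.8 CPM in KO, against 468 ± 59.0 CPM in WT, and Nnmt, which spends it on nicotinamide, rose to 20.4 ± 1.76 CPM in KO, against 7.45 ± 4.36 CPM in WT (SD, n = 4 each; edgeR adjusted p = 0.0233 and 0.0135). Of 9 tested genes for acetyl-CoA and NAD supply, 1 rose (Nadsyn1) and 2 fell (Nampt and Nadk). Nampt, the rate-limiting enzyme of NAD salvage, was at 121 ± 12.8 CPM in KO and 184 ± 32.2 CPM in WT (edgeR adjusted p = 0.0143). Of 14 genes of 2-oxoglutarate metabolism and the citric acid cycle, 4 fell (Fh1, Idh3g, Dlst and Idh3a) and none rose.

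**Figure D5:**
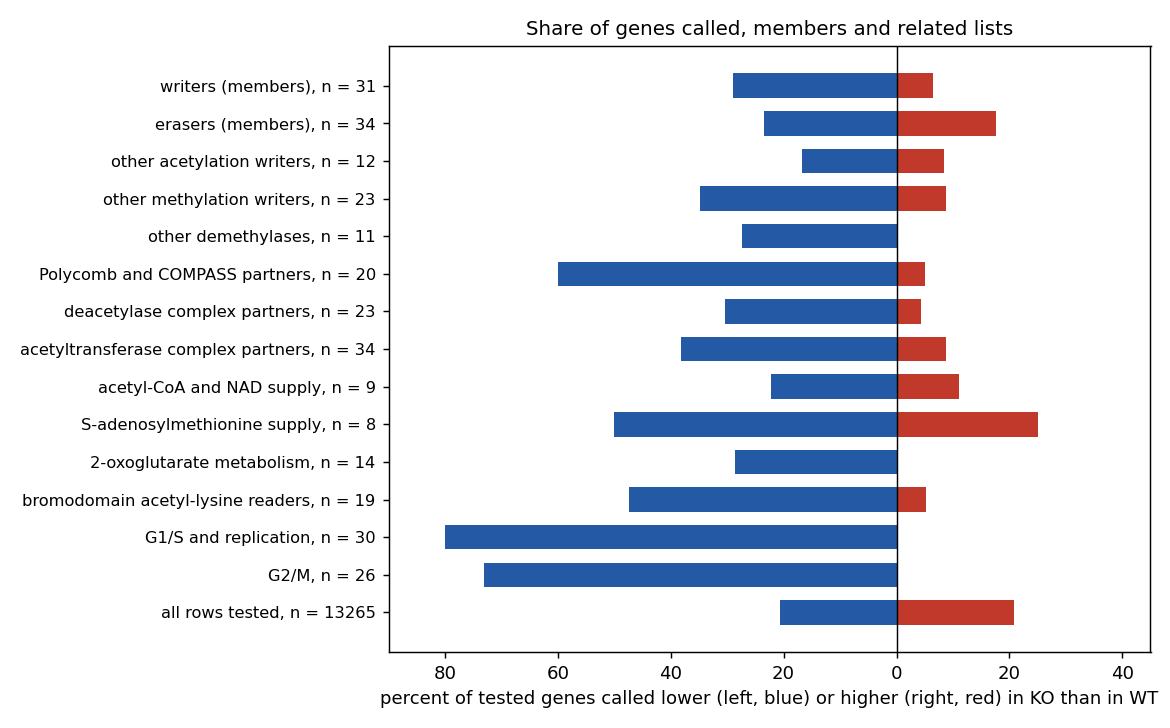
Percent of tested genes called lower (bars to the left, blue) or higher (bars to the right, red) in KO than in WT for the writers, the erasers, each related list and all rows tested, with the number of genes tested beside each name. All rows split almost evenly (20.9% higher, 20.6% lower), the Polycomb and COMPASS partners lean to lower calls (12 of 20), and the G1/S and G2/M lists have lower calls alone.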

How the data were processed

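Of 2 deposited tables of raw, whole-number counts, which held the same values, 1 was used. It has 26642 rows, 8 library columns and no column of another sample. Per the labels' protocols, TRIzol was used to extract RNA, and mRNA libraries were made from 1 μg. HISAT2, StringTie and GRCm38 are named in the submitters' processing notes; details of counting (program, strand, multi-mapped reads): not given in the sources used here. For that reason counts of overlapping or near-identical genes are uncertain.

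The test was edgeR's quasi-likelihood test (version 4.0.16 under R 4.3.3), two-sided, KO minus WT, on rows that passed filterByExpr at a minimum count of 10 and a minimum total of 15, with TMM factors and Benjamini-Hochberg adjustment over all 13265 rows and a threshold of 0.05. SE is the size of the log2 fold change divided by the square root of F. CPM and CPM per kb of union exon length (GENCODE M21, GRCm38, which holds all 68 members) were computed here; minor isoforms lengthen the union and lower the level per kb. The step was tested on simulated counts. In these all rows had the same spread and few were changed, unlike the data, so they do not measure the error rate here. Within a genotype, libraries differed by a chi-square per degree of freedom of 34.7 to 257, and each was taken as 1 replicate. These values do not show that the libraries are independent. WT replicates 1 and 4 (34.7) and WT replicates 2 and 3 (35.0) differed far less than the other WT pairs (201 to 242). Same-numbered libraries did not deviate together (correlations of -0.032 to -0.003), so numbers were not taken as pairs.

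Members, classes, lists and alternatives (scaling, filter, annotated genes only, DESeq2 1.42.0, limma-voom 3.58.1, replicate block, summed WT pairs, threshold, each library left out) were chosen with earlier results of these data known. Every member is accounted for. Values per library are given for called members, up to 12 in each direction by size, and mean ± SD for the others called; of each related list, at most 4 called genes per direction by p. Kat6a, Kmt2a, Kdm6b, Setd7, Kdm8, Ezh2, Ndufaf7 and the cell type markers were given values after those were seen, and the letters counted as 4 copies were chosen after seeing the windows. Promoter windows are from RefSeq (GRCm38.p6) and matched 56 members.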

Additional observations from a re-analysis of the deposited data

Results flagged for a closer look

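For 2 of the 50 groups of 4 libraries checked (25 called members, KO and WT), 1 library stood far from the others relative to the range of its group; chance flags about 1 in 20. Prmt5 was at 87.8 CPM in KO replicate 1, against 40.8 to 45 CPM in KO replicates 2, 3 and 4. Hdac2 was at 108 CPM in KO replicate 1, against 84.8 to 86.7 CPM in the other KO libraries. Both values lay below the lowest WT library, which was at 110 CPM for Prmt5 and 124 CPM for Hdac2. Without KO replicate 1, both calls held.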

How the results depend on the processing

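Of the 25 members called, 14 kept their call in each of the 18 refits in which they were tested (Hdac3, Hdac11, Kat2a, Kdm2b, Kdm5b, Kdm7a, Kmt5a, Prmt5, Prmt6, Prmt7, Setd1a, Setd1b, Sirt1 and Sirt3; Sirt1 was tested in 17), and 11 lost it in at least 1. No call was lost with DESeq2 as the test, DESeq2's size factors, limma-voom, annotated genes only or without KO replicate 1. Upper-quartile factors and library size only shifted the all-row median to 0.20 (log2), against 0.02 with TMM factors. The median of writers was then -0.14 and -0.13 and that of erasers 0.22 and 0.23, the difference between them staying at -0.36. With these scalings 4 writers were called higher under both, and erasers were called higher more often than lower (9 against 5, and 8 against 4), the other way round from 6 against 8 with TMM factors. Without a filter on low counts 7 erasers were called higher and 5 lower, with a median of 0.13; with at least 5 CPM in 4 libraries these were 8, 5 and 0.19. The replicate block, fitted although the numbers do not pair the libraries, left 21 members called, with 5 erasers higher and 5 lower. With WT replicates 1 and 4 summed and 2 and 3 summed, 3134 rows and 15 members were called, 0 writers higher and 4 erasers lower. At an adjusted p under 0.01, 2736 rows and 10 members were called: 0 writers higher, 4 lower, 3 erasers higher and 3 lower. Leaving out each library in turn gave 3809 to 6829 rows and 17 to 35 members called, with 1 to 5 writers higher, 7 to 12 lower, 4 to 9 erasers higher and 5 to 9 lower, and medians of -0.37 to -0.25 for writers and 0.01 to 0.07 for erasers. Depth limits Kdm4d, Kdm5d and Prmt8, which could not be tested, and Sirt1, whose KO libraries hold 9 to 16 counts.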
